A study of Canis lupus familiaris with 18 samples.

Results

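The genes described here make, sense and degrade prostaglandin E2 (PGE2), and they were followed across 18 canine primary osteosarcomas. There are 7 of them, of 15115 genes with a symbol on the array: the cyclooxygenases PTGS1 (COX-1) and PTGS2 (COX-2), the terminal synthases PTGES and PTGES2, the receptors PTGER2 (EP2) and PTGER4 (EP4), and the degrading enzyme HPGD. They were chosen as all probe sets that the platform annotation assigns to exactly one of these symbols, which gave 12 of the 42924 probe sets other than controls. Their canine Entrez gene identifiers in that annotation are 403544 (PTGS1), 442942 (PTGS2), 480698 (PTGES), 609101 (PTGES2), 403797 (PTGER2), 403589 (PTGER4) and 486073 (HPGD). PTGES and PTGES2 had 3 probe sets each, PTGER2 had 2, and the other 4 genes had 1 each. A probe set is a group of short oligonucleotides that together report 1 transcript on the array, and one whose name ends in _s_at can share probes with other transcripts.

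PGE2 is made when a phospholipase frees arachidonic acid from membranes, a cyclooxygenase turns it into an unstable intermediate, prostaglandin H2, and a terminal synthase isomerises that intermediate. It is exported, acts through G protein-coupled receptors of which EP2 and EP4 raise cyclic AMP, and is inactivated after uptake by 15-hydroxyprostaglandin dehydrogenase, the product of HPGD. In bone, PGE2 is known to stimulate both formation and resorption, and COX-2 is the target of anti-inflammatory drugs given to dogs with bone pain.

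Osteosarcoma is a malignant tumour whose cells lay down bone matrix. For 9 tumours the dog's serum concentration of alkaline phosphatase (ALP), an enzyme released mainly from bone and liver, was increased. For the other 9 it was normal. Each tumour was hybridised to 1 single-colour Affymetrix canine array, with no normal tissue as a reference. The tissue was whole tumour, snap frozen at an operation, a biopsy or a necropsy, and neither the procedure for each tumour nor the breed, age or drug treatment of the dogs was used here.

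The osteoblast marker COL1A1, the main collagen chain of bone, lay between 13.73 and 14.88 with increased ALP and between 12.75 and 14.72 with normal ALP. These and all later levels are log2(signal + 16), and a difference or deviation is in log2 units of that scale. RUNX2, the transcription factor of the osteoblast lineage, ranged between 6.09 and 8.47 with increased ALP and between 6.04 and 7.62 with normal ALP. IBSP, a bone matrix protein, spanned 5.42 to 14.21 with increased ALP and 4.85 to 13.73 with normal ALP. It was thus bright in some tumours of each group and dim in others, unlike COL1A1. SPP1 spanned 9.06 to 13.73 with increased and 10.17 to 13.86 with normal ALP. ALPL spanned 6.50 to 13.53 and 8.54 to 13.57, and BGLAP 6.29 to 12.41 and 6.65 to 11.49, in the same order. The deposited log2 values had array medians of 6.25 to 6.31. Across all probe sets tested, 0 of 25754 passed an adjusted p under 0.05 between the ALP groups in limma (0.0%), and 1582 had an unadjusted p under 0.05 (6.14%). The actin 3' minus middle difference, a measure of RNA quality, lay between 0.43 and 1.15 with increased ALP and between 0.37 and 0.48 with normal ALP, so RNA quality by that measure and ALP group partly move together. The same difference for GAPDH overlapped more, between 0.16 and 0.74 with increased ALP and between 0.15 and 0.57 with normal ALP.

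None of the 12 probe sets was called different between the ALP groups. In limma 0 of 12 had an adjusted p under 0.05, against 0.0% of all probe sets tested, and 0 of 12 had an unadjusted p under 0.05, against 6.14%. Of the 10 past the filter on dim probe sets, 6 had a positive difference (increased minus normal ALP) and 4 a negative one, with a median of 0.13 beside 0.0066 for all 25754 probe sets tested. The other 2, 1 of PTGER2 and that of HPGD, lay below the filter and take their values from a fit with no filter. The ranges of the ALP groups overlapped in all 12, as they did in every probe set tested, since 0 of 25754 had groups that did not overlap (0.0%). The genes differed more in their spread between tumours. The SD over the 18 tumours was larger than that of 99.65% of the probe sets tested for PTGS2, 98.6% for PTGES, 98.5% for PTGS1, through 1 tumour, and 96.9% for PTGER4. The same share was 22.5% for PTGES2 and 12.9% for the PTGER2 probe set past the filter, but 63.1% for the PTGER2 probe set that lay under it.

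**Figure D1:**
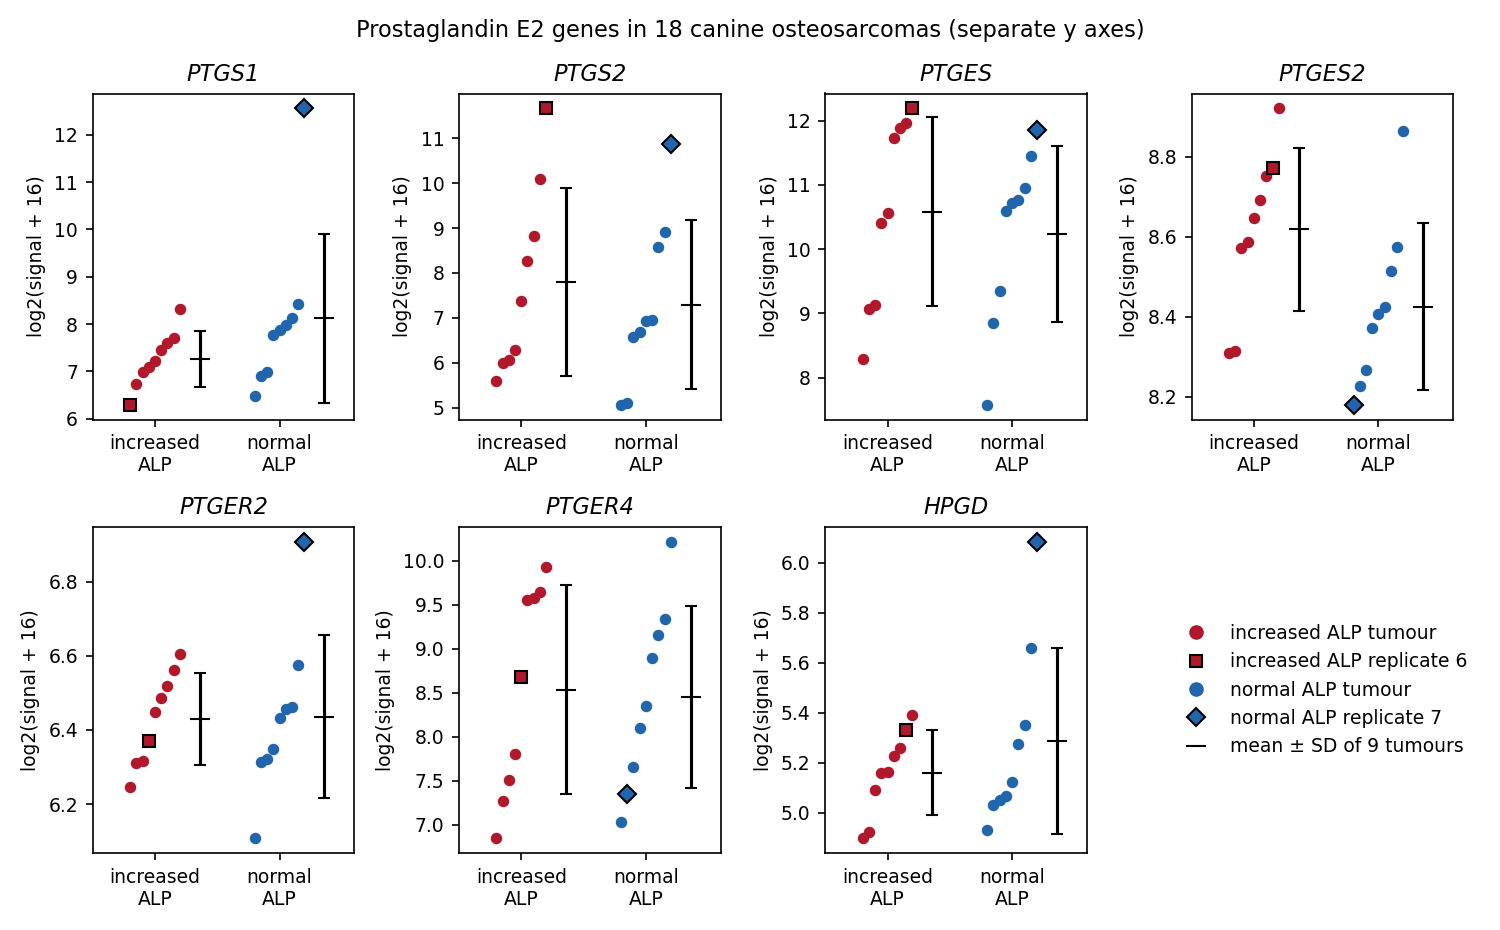
Values of the 7 genes in the 18 tumours on the scale of log2(signal + 16), with increased ALP left and normal ALP right and a separate y axis for each gene. Each point is 1 tumour at the gene's probe set of highest mean, and the bar beside each group is its mean ± SD of 9 tumours. The square marks increased ALP replicate 6, the highest for PTGS2 and PTGES. The diamond marks normal ALP replicate 7, which was at 12.56 for PTGS1 while every other tumour was at 8.43 or below.

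PTGS1 encodes COX-1, the cyclooxygenase that many tissues make constitutively and that platelets use to make thromboxane. At its single probe set, an _s_at one, the 9 tumours with increased ALP had a lowest value of 6.29, a median of 7.22 and a highest of 8.32, against 6.47, 7.87 and 12.56 with normal ALP. The highest of these belonged to normal ALP replicate 7, and the other 17 tumours lay within 6.29 and 8.43. The group means were 7.26 ± 0.59 with increased ALP and 8.12 ± 1.79 with normal ALP (SD, n = 9 each), which differed by -0.86 ± 0.58 (SE, 95% interval -2.08 to 0.36). Its adjusted p in limma was 0.854 and its exact two-sided permutation p was 0.170. Of the 9 values with increased ALP, 8 were below the normal ALP mean, but normal ALP replicate 7 raised that mean. Without normal ALP replicate 7 the mean with normal ALP was 7.56 ± 0.69 (SD, n = 8) and the difference was -0.30 ± 0.29 (SE), with an adjusted p of 0.882 in limma. The deposited signal spanned 96.9-fold over the 18 tumours and 5.27-fold without that tumour. In a bulk tumour, fewer cells of a type and less RNA per cell cannot be told apart, and this holds for every level given here.

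The excess of PTGS1 in normal ALP replicate 7 over the next-highest tumour was 4.14 on the log2 scale, the largest such gap of that tumour among the 10717 genes tested. The next-largest gaps in that tumour were 3.19 for GUCY1A1, a subunit of the nitric oxide receptor soluble guanylate cyclase, and 2.90 for PEG3, an imprinted zinc finger gene. S100A5, a calcium-binding protein gene, and BCHE, which encodes butyrylcholinesterase, each had a gap of 2.78. The same tumour had the highest mast cell score of the 18, at 1.94, with cartilage at 1.77 and platelet at 0.91, but low endothelial and osteoblast scores of -1.24 and -1.22. A score is the mean over a marker list of each gene's deviation from its mean over all tumours. The part of these cell types in the PTGS1 value of 1 tumour was not tested.

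PTGS2 encodes COX-2, the cyclooxygenase induced by cytokines and growth factors. With increased ALP its probe set, also an _s_at one, had a lowest value of 5.60, a median of 7.39 and a highest of 11.66, against 5.07, 6.93 and 10.88 with normal ALP. Each group held tumours near the bottom and near the top of the range: increased ALP replicate 6 and normal ALP replicate 7 were highest in their groups, and increased ALP replicate 5 and normal ALP replicate 1 lowest. The signal spanned 99.4-fold among the tumours with increased ALP, 106-fold among those with normal ALP and 184-fold over all 18. Its SD over all tumours was 1.94. Group means of 7.80 ± 2.09 with increased ALP and 7.30 ± 1.87 with normal ALP (SD, n = 9 each) gave a difference of 0.50 ± 0.87 (SE, 95% interval -1.32 to 2.31). The adjusted p was 0.941 in limma and the exact two-sided permutation p was 0.599. That interval allows increased over normal ALP to be anywhere between 0.402-fold and 4.97-fold, so differences within those limits were not excluded with 9 tumours per group. With the actin difference in the fit the PTGS2 difference was -0.85. Leaving out single tumours gave 0.015 (without increased ALP replicate 6) to 0.95 (without normal ALP replicate 7).

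PTGES encodes microsomal PGE synthase 1, the inducible terminal synthase that is commonly coupled to COX-2. At its probe set of highest mean, an _at one, the tumours with increased ALP had a lowest value of 8.29, a median of 10.57 and a highest of 12.19, against 7.58, 10.71 and 11.85 with normal ALP. Increased ALP replicate 6 and normal ALP replicate 7, the tumours highest for PTGS2 in their groups, were also highest here, and increased ALP replicate 9 and normal ALP replicate 8 were lowest. The signal spanned 26.6-fold, and the SD over all tumours was 1.39. Means were 10.58 ± 1.47 with increased ALP and 10.23 ± 1.37 with normal ALP (SD, n = 9 each), and the difference was 0.35 ± 0.62 (SE, 95% interval -0.95 to 1.65). The limma adjusted p was 0.942 and the exact permutation p 0.604. Leaving out single tumours gave 0.016 (without normal ALP replicate 8) to 0.63 (without increased ALP replicate 9). The remaining PTGES probe sets gave differences of 0.17 ± 0.57 (the _s_at one) and 0.32 ± 0.51 (the other _at one, SE each). All 3 ranked the tumours in nearly the same order, with Pearson correlations between them of 0.986, 0.991 and 0.989 (n = 18), so the variation of PTGES between tumours was measured 3 times over by probes that may overlap.

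PTGES2 encodes microsomal PGE synthase 2, a constitutively made enzyme that carries PGE synthase activity in vitro. At its probe set of highest mean, an _at one, the 9 tumours with increased ALP had a lowest value of 8.31, a median of 8.65 and a highest of 8.92, against 8.18, 8.41 and 8.86 with normal ALP. This gene was nearly flat: its signal spanned only 1.71-fold over the 18 tumours, with an SD of 0.22. The means were 8.62 ± 0.20 with increased ALP and 8.43 ± 0.21 with normal ALP (SD, n = 9 each). The difference of 0.19 ± 0.11 (SE, 95% interval -0.04 to 0.43) had a limma adjusted p of 0.844 and the smallest exact permutation p of the 12 probe sets, 0.0658. Of the 9 tumours with increased ALP, 7 lay above the normal ALP mean. The other PTGES2 probe sets did not carry that direction: the second _at one gave -0.04 ± 0.11 and the _s_at one gave -0.07 ± 0.09 (SE), and they correlated with the first at only 0.384 and 0.348 (n = 18), but with each other at 0.727.

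**Figure D2:**
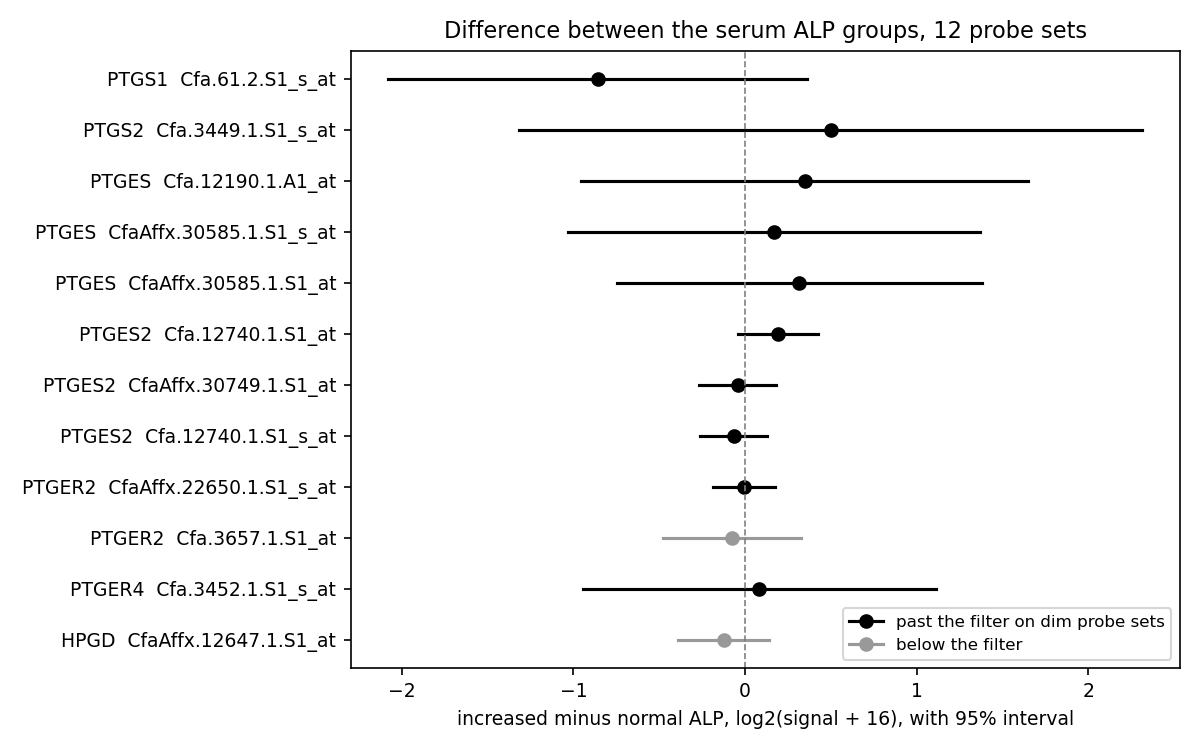
Difference between the ALP groups (increased minus normal) for the 12 probe sets on the scale of log2(signal + 16), with points for the estimate and lines for its 95% interval. Black marks the 10 probe sets past the filter on dim probe sets and grey the 2 below it. Every interval includes 0, and the intervals of PTGS2, PTGS1, PTGES and PTGER4 are wider than those of PTGES2 and PTGER2.

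PTGER2 encodes EP2, and its probe set past the filter, an _s_at one, had a lowest value of 6.25, a median of 6.45 and a highest of 6.60 with increased ALP, against 6.11, 6.43 and 6.91 with normal ALP. The highest was again normal ALP replicate 7, and the signal spanned 1.97-fold over all tumours. The means of 6.43 ± 0.12 with increased ALP and 6.44 ± 0.22 with normal ALP (SD, n = 9 each) differed by -0.01 ± 0.09 (SE, 95% interval -0.19 to 0.17; limma adjusted p = 0.994, exact permutation p = 0.939). The _at probe set, below the filter, ranged between 4.39 and 5.09 with increased ALP and between 4.44 and 6.14 with normal ALP, where 6.14 was normal ALP replicate 7 and the next-highest of that group was 4.97. Its signal spanned 11.1-fold over all tumours and 3.68-fold without normal ALP replicate 7. Its difference was -0.08 ± 0.19 (SE), with an adjusted p of 0.942 in the limma fit with no filter. No detection calls were used, so whether PTGER2 was above background in a given tumour is not known.

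PTGER4 encodes EP4, which like EP2 signals through cyclic AMP. Its probe set, an _s_at one, had a lowest value of 6.84, a median of 8.67 and a highest of 9.93 with increased ALP, against 7.03, 8.35 and 10.21 with normal ALP. Normal ALP replicate 1 and increased ALP replicate 7 were highest, and increased ALP replicate 5 and normal ALP replicate 2 lowest. Normal ALP replicate 1 was the lowest of all for PTGS2, and increased ALP replicate 5 was the lowest of its group for both genes. The signal spanned 11.8-fold, with an SD of 1.08. Means of 8.53 ± 1.19 with increased ALP and 8.45 ± 1.04 with normal ALP (SD, n = 9 each) gave a difference of 0.08 ± 0.49 (SE, 95% interval -0.95 to 1.11). The limma adjusted p was 0.988 and the exact permutation p 0.875. With the actin difference in the fit the difference was -0.54, and the sign also turned on leaving out any of 7 single tumours.

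HPGD encodes the enzyme that oxidises PGE2 to an inactive metabolite. Its probe set, an _at one, was below the filter, with a lowest value of 4.90, a median of 5.16 and a highest of 5.39 with increased ALP, against 4.93, 5.12 and 6.08 with normal ALP. Normal ALP replicate 7 was highest once more, followed by normal ALP replicate 1 at 5.66, and the other 16 tumours lay within 4.90 and 5.39. The groups differed by -0.13 ± 0.13 (SE, 95% interval -0.39 to 0.14; adjusted p = 0.861 in the limma fit with no filter, exact permutation p = 0.402). Without normal ALP replicate 7 the difference was -0.025.

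A few tumours held most of the highest values, while the lowest value of each gene was in a different tumour. Normal ALP replicate 7 was among the 3 highest tumours for 4 of the 7 genes (PTGS1, PTGS2, PTGER2 and HPGD) and the highest of all for 3 of them. It was the lowest of all for PTGES2, at 8.18. Increased ALP replicate 6 was among the 3 highest for PTGS2, PTGES and PTGES2, and the highest of all for the first 2, but it was the lowest of all for PTGS1. Increased ALP replicate 1 was among the 3 highest for PTGS2, PTGES and PTGER2, and normal ALP replicate 1 for PTGS1, PTGER4 and HPGD. At the other end, normal ALP replicate 8 and increased ALP replicate 5 were each among the 3 lowest for 3 of the genes.

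**Figure D3:**
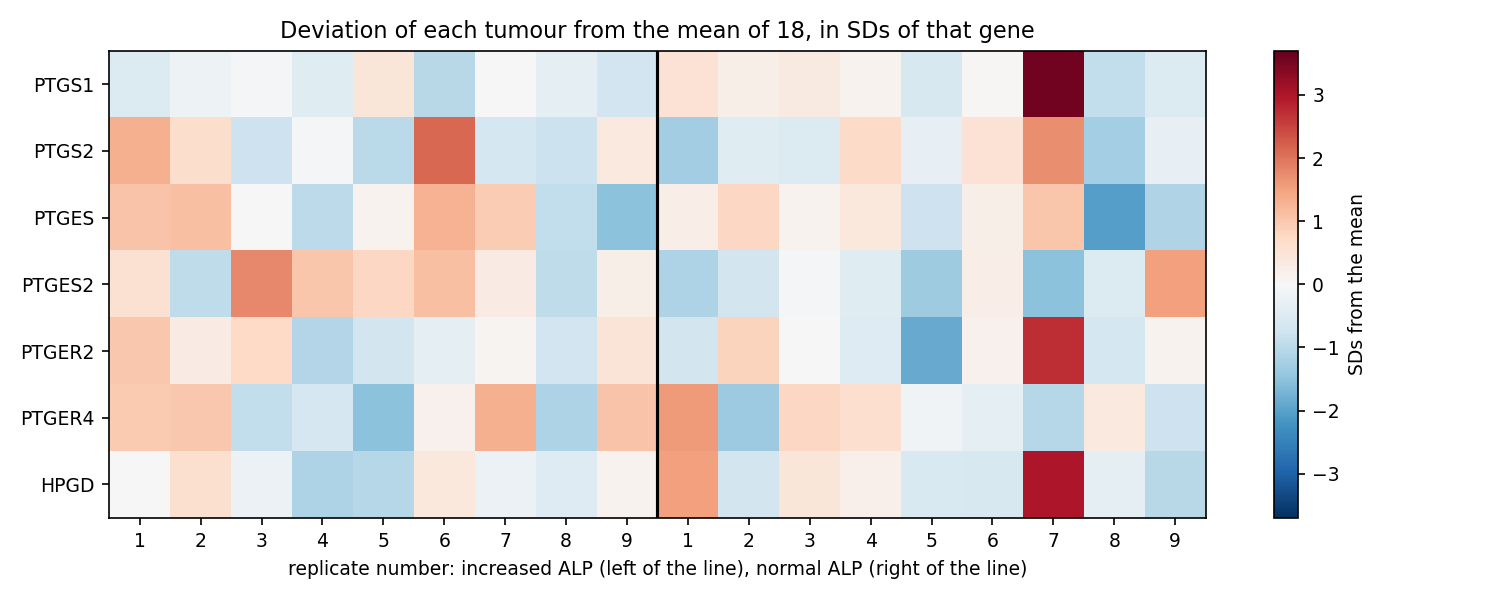
Deviation of each tumour from the mean of all 18 for each of the 7 genes, in SDs of that gene (colour), with increased ALP left of the line and normal ALP right of it, by replicate number. Normal ALP replicate 7 is far above the mean for PTGS1, PTGER2 and HPGD, and increased ALP replicate 6 for PTGS2.

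Pairs of the 7 genes were then compared across tumours, with 21 relations in the family. After Benjamini-Hochberg adjustment none passed 0.05 by Pearson or by Spearman correlation, and 5 had an unadjusted permutation p under 0.05 by Pearson, with the smallest adjusted p at 0.101. PTGS2 and PTGES, which act one after the other in inducible PGE2 synthesis, had r = 0.53 (permutation p = 0.0240, adjusted p = 0.101) and rho = 0.53 (permutation p = 0.0256, adjusted p = 0.179). The correlation was 0.46 within increased ALP and 0.58 within normal ALP, and 0.35 without the 2 tumours farthest from the PTGS2 median, normal ALP replicate 7 and increased ALP replicate 6. Leaving out single tumours gave 0.44 to 0.61.

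The correlations of PTGS1 with HPGD and PTGER2 rested on 1 tumour. PTGS1 and HPGD had r = 0.72 (permutation p = 0.0130, adjusted p = 0.101) but rho = 0.21 (permutation p = 0.403, adjusted p = 0.675). For that pair r was 0.19 without normal ALP replicate 7, and 0.32 without that tumour and increased ALP replicate 6, the 2 farthest from the PTGS1 median. PTGS1 and PTGER2 had r = 0.64 (permutation p = 0.0200, adjusted p = 0.101) and rho = 0.15 (permutation p = 0.546, adjusted p = 0.723). It was at r = 0.10 without normal ALP replicate 7 and 0.081 without the 2 farthest. The same tumour carried PTGER2 with HPGD, where r was 0.57 (permutation p = 0.0227, adjusted p = 0.101) and 0.12 without it, with rho = 0.30 (permutation p = 0.220, adjusted p = 0.480), and 0.052 without the 2 tumours farthest from the PTGER2 median. PTGS1 and PTGS2, the alternative cyclooxygenases, had r = 0.20 over all tumours, -0.79 within increased ALP and 0.71 within normal ALP, the last of which was 0.15 without normal ALP replicate 7 (n = 8). The difference between the groups in that correlation was not tested. Over the 17 other tumours, PTGS1 and PTGS2 had r = -0.44. PTGS1 with PTGES moved little without it: r was 0.40 over all tumours (permutation p = 0.0914, adjusted p = 0.174) and 0.38 without normal ALP replicate 7, with rho = 0.30 (permutation p = 0.221, adjusted p = 0.480). Within increased ALP that pair was at 0.048 and within normal ALP at 0.71, or 0.91 without normal ALP replicate 7 (n = 8), and over all tumours it was at 0.64 without the 2 farthest.

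A further relation was larger without that tumour. PTGER4 and HPGD had r = 0.30 (permutation p = 0.231, adjusted p = 0.405) over 18 tumours, with rho = 0.59 (permutation p = 0.0114, adjusted p = 0.179), and r = 0.78 without normal ALP replicate 7. It was the only one of the 21 pairs to pass an adjusted p of 0.05 on leaving out a single tumour, and HPGD is dim enough to lie below the filter. Without the 2 tumours farthest from the PTGER4 median, normal ALP replicate 1 and increased ALP replicate 5, r was 0.088 with normal ALP replicate 7 still in. PTGES2 and HPGD had r = -0.52 (permutation p = 0.0213, adjusted p = 0.101) and rho = -0.43 (permutation p = 0.0773, adjusted p = 0.308), with r = -0.38 without normal ALP replicate 7 and -0.42 without the 2 tumours farthest from the PTGES2 median. These values are for the PTGES2 probe set of highest mean, which correlated at only 0.384 and 0.348 with the other PTGES2 probe sets. PTGES and HPGD had r = 0.44 (permutation p = 0.0658, adjusted p = 0.155) and rho = 0.54 (permutation p = 0.0232, adjusted p = 0.179), with r = 0.54 without the 2 tumours farthest from the PTGES median.

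**Figure D4:**
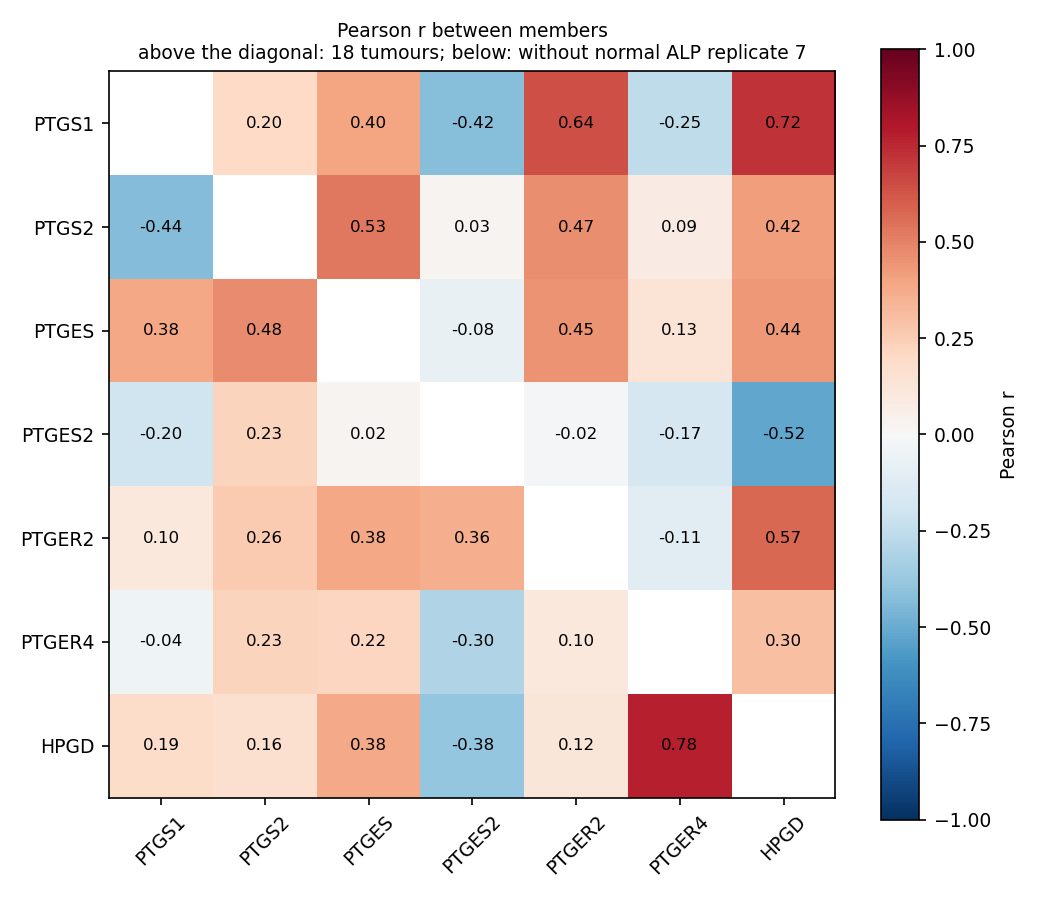
Pearson r between the 7 genes, by each gene's probe set of highest mean, over 18 tumours above the diagonal and over 17 tumours, without normal ALP replicate 7, below it. The PTGS1 row is strongly positive with PTGER2 (0.64) and HPGD (0.72) above the diagonal, and those pairs are at 0.10 and 0.19 below it, while PTGER4 with HPGD is at 0.30 above and 0.78 below.

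The variation between tumours was next set against scores of 13 cell types, each built on at least 3 measured markers. Of 91 relations, 9 passed an adjusted p of 0.05 by Pearson correlation and 4 of those also by Spearman. PTGES was lower where osteoblast markers were higher: with the osteoblast score (8 of 9 listed markers measured) r was -0.68 (permutation p = 0.00200, adjusted p = 0.0369) and rho was -0.69 (permutation p = 0.00196, adjusted p = 0.0446). Both groups held that direction, with r = -0.84 within increased ALP and -0.49 within normal ALP, and r was -0.71 without the 2 tumours farthest from the median score. The osteoblast score itself ranged between -2.14 and 1.64 with increased ALP and between -1.94 and 1.11 with normal ALP. PTGES also ran against the osteoclast score (ACP5, CTSK, MMP9, ATP6V0D2 and ITGB3, 5 of 9 listed), with r = -0.66 (permutation p = 0.00324, adjusted p = 0.0369), rho = -0.70 (permutation p = 0.00144, adjusted p = 0.0437), and r = -0.73 without the 2 farthest tumours. The osteoclast score ranged between -2.85 and 1.57 with increased ALP and between -2.88 and 1.81 with normal ALP. Normal ALP replicate 3 and increased ALP replicates 2 and 7 were the lowest tumours for both scores. They were at -1.94, -2.14 and -1.76 for osteoblast and -2.88, -2.01 and -2.85 for osteoclast, in that order. The 2 relations of PTGES are thus not separate results.

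PTGES ran with the platelet score (PPBP, GP9 and ITGA2B, 3 of 5 listed), at r = 0.67 (permutation p = 0.00234, adjusted p = 0.0369) and rho = 0.72 (permutation p = 0.00128, adjusted p = 0.0437), with r = 0.64 without the 2 farthest tumours. PTGS2 had r = 0.72 with the same score (permutation p = 0.00112, adjusted p = 0.0369), but rho = 0.37 (permutation p = 0.134, adjusted p = 0.350), and r was 0.33 without normal ALP replicate 7 and increased ALP replicate 6, so that relation rests on those tumours. That score ranged between -0.39 and 1.16 with increased ALP and between -0.43 and 0.91 with normal ALP. PTGER4 ran with the endothelial score (10 of 10 markers), at r = 0.68 (permutation p = 0.00211, adjusted p = 0.0369) and rho = 0.71 (permutation p = 0.00142, adjusted p = 0.0437). Within increased ALP it was 0.69 and within normal ALP 0.74, and 0.58 without the 2 farthest tumours. The endothelial score lay between -0.73 and 1.08 with increased ALP and between -1.25 and 1.13 with normal ALP.

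Of the relations called by Pearson alone, PTGER4 with the smooth muscle and pericyte score had r = 0.64 (permutation p = 0.00471, adjusted p = 0.0476) and rho = 0.63 (permutation p = 0.00586, adjusted p = 0.0593), with r = 0.58 without the 2 farthest tumours. HPGD with the fibroblast score had r = 0.64 (permutation p = 0.00282, adjusted p = 0.0369) and rho = 0.67 (permutation p = 0.00303, adjusted p = 0.0551), with r = 0.70 without the 2 farthest. HPGD had r = 0.81 with the mast cell score (KIT, CPA3 and MS4A2, 3 of 5 listed; permutation p = 0.000200, adjusted p = 0.0182) and rho = 0.66 (permutation p = 0.00401, adjusted p = 0.0593), with r = 0.49 without normal ALP replicates 1 and 7. PTGS1 had r = 0.71 with the mast cell score (permutation p = 0.00288, adjusted p = 0.0369), but rho = 0.41 (permutation p = 0.0931, adjusted p = 0.296), and r was 0.26 without those 2 tumours. None of the relations of PTGES2 or PTGER2 with a cell type score was called. Which cells in these tumours made the transcripts was not tested.

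Upstream and downstream genes of the pathway were taken as 6 lists of 59 genes, of which 36 were measured past the filter. In the ALP comparison 24 had a positive difference and 12 a negative one, 0 passed an adjusted p of 0.05 in limma, and 2 had an unadjusted p under 0.05, against 4.86% of all 10717 genes tested. The first of these 2 was PTGES3, a co-chaperone of HSP90 also known as the cytosolic PGE synthase, at 9.30 ± 0.49 with increased ALP and 10.25 ± 0.42 with normal ALP (SD, n = 9 each). Its groups differed by -0.95 ± 0.21 (SE, 95% interval -1.39 to -0.51; limma adjusted p = 0.608). The other was TNF, a cytokine that induces COX-2, with a difference of 0.20 ± 0.09 (SE) and an adjusted p of 0.808 in limma, and 0.12 ± 0.10 (SE) at its other probe set past the filter.

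By list, the median differences lay between -0.21 and 0.20, beside 0.013 for all genes tested. The phospholipases had 3 positive and 2 negative of 5 (median 0.07), with PLA2G12A at 0.24 ± 0.21, PLA2G5 at 0.38 ± 0.63 and the cytosolic enzyme PLA2G4A at -0.24 ± 0.45 (SE). The other PGE2 genes had 2 positive and 3 negative of 5 (median -0.21), among them PTGR2, a reductase of PGE2 metabolites, at -0.34 ± 0.22, ABCC4, which exports PGE2, at -0.21 ± 0.17 and PTGER1, the EP1 receptor, at 0.03 ± 0.07 (SE). Genes of other prostanoids had 6 positive and 1 negative of 7 (median 0.20), with the prostaglandin D2 receptor PTGDR at 0.99 ± 0.69 and prostacyclin synthase PTGIS at 0.23 ± 0.21 (SE). Each of the 3 measured leukotriene genes had a small positive difference at its probe set of highest mean (median 0.03), but LTA4H, the leukotriene A4 hydrolase gene, was at 0.07 ± 0.16 there and at -0.51 ± 0.27 (SE) at its other probe set past the filter, an _s_at one. The inflammatory inducers and NF-kB genes had 6 positive and 2 negative of 8 (median 0.20), with IL6 at 0.86 ± 1.13 (SE). The cAMP-responsive genes were even, with 4 of each (median 0.01), and the transcriptional regulator CREM was at -0.45 ± 0.33 (SE).

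Scores of these lists varied with PTGES and PTGS2 across tumours. Of 42 relations between the 7 genes and the 6 list scores, chosen after the data were seen, 4 passed an adjusted p of 0.05 by Pearson, 3 by Spearman and 2 by both. PTGES had r = 0.72 with the inflammatory score (8 of 12 listed genes; permutation p = 0.000740, adjusted p = 0.0155) and rho = 0.81 (permutation p = 0.000110, adjusted p = 0.00462). That relation was 0.82 within increased ALP, 0.60 within normal ALP and 0.65 without the 2 tumours farthest from the median score, increased ALP replicates 1 and 6. PTGES with the score of other prostanoids had r = 0.77 (permutation p = 0.000150, adjusted p = 0.00630) and rho = 0.75 (permutation p = 0.000370, adjusted p = 0.00777), with r = 0.69 without the 2 farthest tumours. The list was not uniform: 6 of its 7 genes had a positive r with PTGES, down to 0.05 for PTGDR2. Its prostacyclin synthase PTGIS ran the other way, at r = -0.55 and rho = -0.60. PTGS2 with the inflammatory score had r = 0.71 (permutation p = 0.00125, adjusted p = 0.0175) and rho = 0.60 (permutation p = 0.0107, adjusted p = 0.0537), with r = 0.51 without increased ALP replicates 1 and 6. That r was 0.85 within increased ALP and 0.48 within normal ALP. Those 2 tumours had actin 3' minus middle differences of 1.05 and 1.03. Increased ALP replicate 9, at 1.15, had an inflammatory score of -0.78. The part of RNA quality in this relation was not tested. PTGES ran against the phospholipase score, at r = -0.66 (permutation p = 0.00322, adjusted p = 0.0338) and rho = -0.63 (permutation p = 0.00582, adjusted p = 0.0518), with r = -0.71 without the 2 farthest. Of the 5 phospholipases, 2 had a positive r with PTGES, PLA2G6 at 0.25 and PLA2G12A at 0.18, and PLA2G5 was the most negative at -0.68. With the cAMP-responsive score, PTGES had rho = 0.71 (permutation p = 0.00156, adjusted p = 0.0218) but r = 0.54 (permutation p = 0.0198, adjusted p = 0.138), and 0.59 without the 2 farthest.

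**Figure D5:**
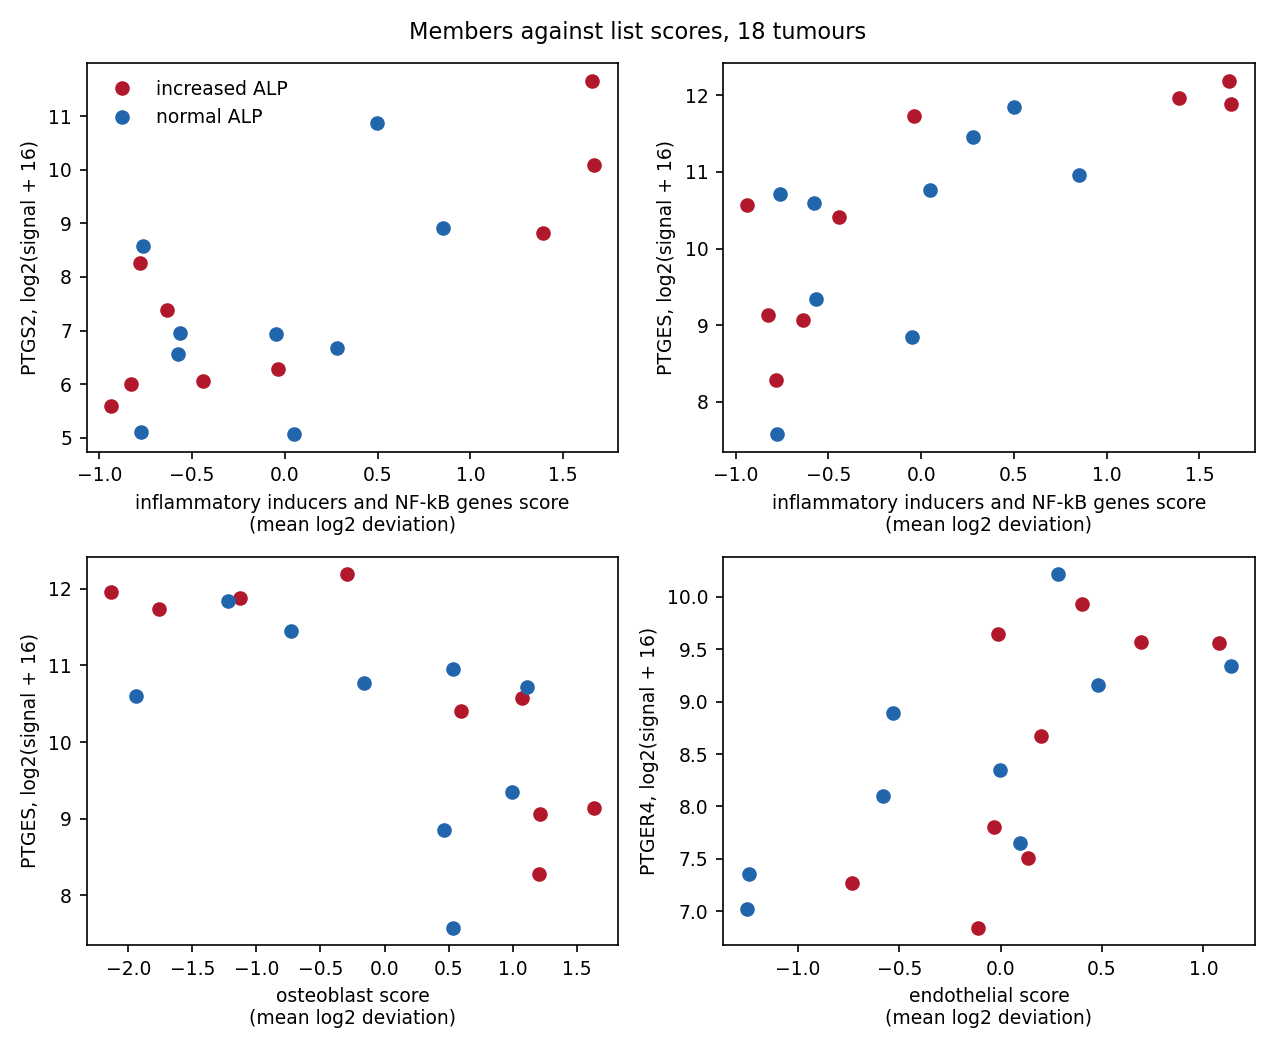
PTGS2 and PTGES against the inflammatory score (top), and PTGES against the osteoblast and PTGER4 against the endothelial score (bottom). Each point is 1 of 18 tumours (red, increased ALP; blue, normal ALP), the y axis is log2(signal + 16) and the x axis is the mean log2 deviation over the list. PTGES is high in tumours with a high inflammatory score and low in those with a high osteoblast score, with both ALP groups spread along each relation.

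Gene by gene, PTGS2 and PTGES were set against the 36 pathway genes, with 72 relations, of which 12 passed an adjusted p of 0.05 by Pearson and 7 of those also by Spearman. All 8 inflammatory genes past the filter, of 12 listed, had a positive r with both, with a median of 0.59 for PTGS2 and 0.46 for PTGES. The listed IL1A, IL1B, LIF and TNFAIP3 lay below the filter. PTGES ran with IL6, the acute-phase cytokine, at r = 0.70 (permutation adjusted p = 0.0329) and rho = 0.73 (permutation adjusted p = 0.0173), and with CXCL8, a neutrophil chemokine, at r = 0.69 and rho = 0.71. It also ran with ICAM1, an adhesion molecule induced by NF-kB, at r = 0.65 and rho = 0.73, with the cAMP phosphodiesterase PDE4B at r = 0.67 and rho = 0.74, and with the thromboxane receptor TBXA2R at r = 0.66 and rho = 0.71. The secreted phospholipase PLA2G5 ran the other way, at r = -0.68 and rho = -0.66. Without the 2 tumours farthest from each gene's median, these r lay between 0.59 for TBXA2R and 0.69 for IL6, and at -0.63 for PLA2G5. By Pearson alone, PTGES was called with the prostaglandin receptors PTGFR (r = 0.61) and PTGDR (r = 0.60), each with a permutation adjusted p of 0.0466. PTGS2 was called by both measures with ICAM1 alone, at r = 0.62 and rho = 0.75 (permutation adjusted p = 0.0173), and r was 0.56 without the 2 farthest tumours. PTGS2 with CXCL8 had r = 0.71 and rho = 0.61 (permutation adjusted p = 0.0522), and with CCL2, a monocyte chemokine, r = 0.62 and rho = 0.45 (permutation adjusted p = 0.185), with r = 0.36 without the 2 farthest. Its correlation with NFKBIA, the inhibitor that NF-kB induces, was 0.63 over all tumours, 0.34 without the 2 farthest, 0.96 within increased ALP and -0.13 within normal ALP, a difference between groups that was not tested.

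Of 21 relations between the 7 genes and the quality measures, 3 had an unadjusted p under 0.05 by Pearson and none passed after adjustment. PTGS2 had r = 0.47 with the actin 3' minus middle difference (permutation p = 0.0452, adjusted p = 0.316) but rho = 0.092 (permutation p = 0.716, adjusted p = 0.903), and r was 0.41 without the 2 farthest tumours. PTGES2 had r = 0.56 with the GAPDH 3' minus middle difference (permutation p = 0.0158, adjusted p = 0.286) and rho = 0.46 (permutation p = 0.0584, adjusted p = 0.614), with r = 0.41 without the 2 farthest. With the BioB spike-in PTGES2 had r = 0.50 (permutation p = 0.0273, adjusted p = 0.286) and rho = 0.27 (permutation p = 0.281, adjusted p = 0.675), with r = 0.066 without the 2 farthest. Both PTGES2 relations are for its probe set of highest mean, which its other probe sets followed only weakly. The part of RNA quality in the levels of PTGS2 and PTGES2 was not tested beyond the fits with these differences as covariates.

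Among the 10717 genes tested, the 5 whose pattern over the 18 tumours was most like each of the 7, by highest Pearson r, are given as a description. For PTGES these were COL3A1 (0.84), which is also a fibroblast marker here, CMTM8 (0.83), SAV1 (0.82), the glucose transporter SLC2A3 (0.82) and POLR2G (0.82), and 4 of the 5 were again nearest without normal ALP replicate 7. For PTGER4 they were HIF1A (0.89), the oxygen-regulated transcription factor, TTLL7 (0.84), PLAT (0.83), which encodes tissue plasminogen activator, PLPP1 (0.83) and PARVA (0.82), with 2 of 5 again nearest without that tumour. For PTGS2 they were ST8SIA4 (0.85), the platelet chemokine gene PPBP (0.80), which is in the platelet list, GRAMD1A (0.79), MKRN1 (0.78) and ZCCHC7 (0.77), with 2 of 5 shared. For PTGES2, at its probe set of highest mean alone, they were TOR4A (0.85), the mitochondrial reductase gene FDXR (0.84), the mitochondrial ribosomal gene MRPL12 (0.75), VPS16 (0.74) and UBOX5 (0.74), with 3 of 5 shared.

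For the other 3, at most 1 of the 5 nearest genes was again among the nearest without normal ALP replicate 7. PTGS1 was nearest to PEG3 (0.92), ADGRF1 (0.87), ZNF699 (0.86), OLFM2 (0.85) and TSHZ2 (0.85), and 0 of these 5 were nearest without that tumour. PTGER2 was nearest to SPSB2 (0.84), GNG3 (0.81), STXBP2 (0.79), SEZ6L (0.79) and OLFM2 (0.79), with 1 of 5 shared. That was SPSB2, which was nearest of all with and without that tumour (0.84 in each). HPGD was nearest to the cyclic nucleotide phosphodiesterase gene PDE3A (0.90), HS3ST1 (0.86), ADGRL3 (0.85), RASL11A (0.85) and LOC100049001 (0.84), with 1 of 5 shared, PDE3A, at 0.80 without that tumour.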

How the data were processed

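The deposited table holds log2 signals for 43035 probe sets in 18 arrays, ranging from 2.03 to 15.09 and not centred per gene. MAS5 is named in the submitters' processing notes with no step or version, and the summary method and normalization are not given in the sources used here. Per the labels, RNA was extracted with TRIzol and biotin-labelled. No detection calls, scan dates or batches were used.

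Values were put back on a linear scale, an offset of 16 was added and log2 taken again, which understates changes of dim probe sets. There was no further normalization. The 111 control probe sets were set aside, and probe sets with a mean below the 40th percentile (6.15) were left out. Of the 42924 others, 29254 carried 1 symbol in the platform annotation, 439 several and 13231 none. No array duplicated another, since at most 0.0999% of values were equal and rank correlations lay between 0.928 and 0.980.

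The 9 tumours with increased and 9 with normal ALP were compared with limma 3.58.1 in R 4.3.3 (lmFit, eBayes with an intensity trend), two-sided, Benjamini-Hochberg adjusted over all probe sets, threshold 0.05. Each of the 12 probe sets of the PGE2 genes was also tested by all 48620 permutations of the labels. The labels name each sample as a tumour and say no more, so p-values measure the spread between samples. Correlations used 100000 permutations (Python 3.11.15, NumPy 2.4.6, SciPy 1.17.1, pandas 2.3.3, matplotlib 3.10.9), with each gene at its probe set of highest mean and Benjamini-Hochberg adjustment within each family of relations. The fits were tested on simulated data. The text names every gene and probe set of the list, up to 4 genes of smallest p per pathway list, and the 5 most alike genes per gene. Single pathway genes are also named where their correlation was called, a rule chosen after the data were seen. The genes and lists were chosen with earlier results of these data known. Relations with pathway genes and quality measures, likeness without normal ALP replicate 7 and correlations within normal ALP without it were added after seeing the data.

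Groups shared tissue numbers 1 to 9, but the 9 same-number pairs correlated at -0.16 to 0.27, 4 of them over 0.1, so the numbers were not taken to pair the tumours. The settings tried were offsets of 1, 64 and none, no filter, a 60th percentile filter, quantile normalization, 75th percentile scaling, eBayes without trend or robust, array weights, the number as a block, actin or GAPDH as a covariate, 1 probe set per gene, and leaving out each tumour.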

Additional observations from a re-analysis of the deposited data

Results flagged for a closer look

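In 24 tests of a single far-off tumour (12 probe sets in 2 ALP groups, by Dixon's test), 2 were positive, and chance gives about 1 in 20. Both were normal ALP replicate 7, which was far above the other tumours with normal ALP. Its PTGS1 value was 12.56 on the scale of log2(signal + 16), with the next-highest tumour at 8.43. Its value at the _at probe set of PTGER2 was 6.14, with the next-highest of its group at 4.97, and that probe set lay below the filter on dim probe sets.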

How the results depend on the processing

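The count of called probe sets between the ALP groups was 0, among all probe sets and among the 12 of the PGE2 genes, under each of 14 other settings and on leaving out each of the 18 tumours. Unadjusted p under 0.05 was reached by 1582 probe sets, by 2625 with no filter, 976 at the 60th percentile, 889 with the actin covariate and 533 with 1 probe set per gene. With the replicate block 0 were called and 1677 had an unadjusted p under 0.05. Signs turned for PTGS2 (-0.85) and PTGER4 (-0.54) with the actin covariate, for PTGER2 at its _s_at probe set with 75th percentile scaling (0.030), array weights (0.062) and the GAPDH covariate (0.0026), and for its _at probe set with array weights (0.10). Leaving out single tumours gave 0.015 to 0.95 for PTGS2, 0.016 to 0.63 for PTGES at its _at probe set of highest mean, -0.087 to 0.43 for PTGES at its _s_at probe set, -0.079 to 0.0058 for PTGES2 at its second _at probe set, -0.048 to 0.052 and -0.13 to 0.10 for the PTGER2 probe sets, and -0.10 to 0.30 for PTGER4. Called pairs of the 7 genes numbered 0 to 1 on leaving out single tumours, with 1 without normal ALP replicate 7. Called relations with cell type scores numbered 9, but 4 by Spearman and 5 without the 2 tumours farthest from the median score, of which 3 were among the 9, and as many as 13 from deviations from the ALP group means, among them all 9. Of the 4 relations called by both measures, PTGES with the osteoblast and osteoclast scores, which share their lowest tumours, held in all 5 other settings tried for these scores. PTGER4 with the endothelial score and PTGES with the platelet score were each weaker in 1 of them. The cause of these changes was not tested. Dim PTGER2 and HPGD probe sets limit what can be said of those genes, since their signal over background is not known here.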
